A study of Homo sapiens with 7 samples.

Results

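The PRD-like homeobox genes TPRX1, TPRX2, LEUTX, ARGFX, DPRX, DUXA, DUXB and DUX4 were read by symbol from the table of gene counts, which held all 8 among its 59251 rows. The table covers 7 RNA-seq libraries of H9, an established human embryonic stem cell line, from cells kept in the naive-state medium RSeT and taken 48 h after transfection. CTRL (n = 4) and DJL1 (n = 3) differ by the guide RNA plasmids, and by the series title DJL1 has to do with LINE1 elements that lie where the rDNA arrays have their distal junctions. The sources used here name neither the protein that the guides direct nor what the CTRL cells received. The medium of both groups held DZNep at 10 nM, which lowers histone methylation, and TSA at 5 nM, which blocks histone deacetylases. The CEPT survival cocktail, made of trans-ISRIB, Emricasan, polyamine and Chroman 1, was present until 16 h. Every value below therefore comes from cells of 1 line under chromatin inhibitors.

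These genes encode transcription factors with a homeodomain of the paired-like type. TPRX1, TPRX2, LEUTX, ARGFX and DPRX arose in mammals by duplication of CRX, the cone-rod homeobox gene of the retina, whereas DUXA, DUXB and DUX4 encode proteins with a pair of homeodomains. In human embryos DUX4 is expressed briefly before the main wave of genome activation and activates LEUTX, DUXA, ZSCAN4 and other genes, and TPRX1, TPRX2 and LEUTX mark the 8-cell stage that follows. Most of these genes are silent in adult tissues. Naive human stem cell cultures can hold a small number of cells that express the 8-cell-stage genes.

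TPRX1 and TPRX2 flank CRX on chromosome 19, and part of their sequence cannot be told apart by reads. The stretch printed here is the longest run of identical bases between the longest TPRX1 and TPRX2 transcripts of GENCODE release 29, 285 bases, all coding in TPRX1. It is shown because reads inside it fit both genes. Capitals mark the 170 bases of TPRX1 exon 3 (chr19:47803504-47803673, GRCh38, minus strand), and lower case marks the 115 bases of exon 4 (chr19:47802866-47802980).
TPRX1 and TPRX2 shared stretch: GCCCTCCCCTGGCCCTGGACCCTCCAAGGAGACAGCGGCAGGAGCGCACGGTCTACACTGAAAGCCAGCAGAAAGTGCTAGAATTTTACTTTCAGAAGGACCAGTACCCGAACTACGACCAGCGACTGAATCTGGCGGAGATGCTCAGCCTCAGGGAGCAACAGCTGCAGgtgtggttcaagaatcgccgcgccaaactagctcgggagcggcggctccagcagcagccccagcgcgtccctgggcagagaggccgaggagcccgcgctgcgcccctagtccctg
Of all windows of 75 bases in the TPRX2 transcript, 26.2% also occur in TPRX1, and 10.6% of the TPRX1 windows occur in TPRX2. For LEUTX, DPRX, DUXA and DUXB no such window occurs in a transcript of another gene, and for ARGFX 1.63% do. DUX4 stands apart, with 81.8% of its windows found in transcripts of 29 other genes, foremost the DUX4L copies.

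RefSeq promoters (GRCh38.p14, 250 bases before to 50 after a start) were at hand for TPRX2, LEUTX with 2 starts, DUXA, DUXB and DUX4. Those of 4 of the genes called higher in DJL1 are printed, the downstream start alone for LEUTX, so that their start regions can be compared. Capitals mark TAATCC, the core bound by bicoid-type homeodomains such as CRX, or TATAAA, the TATA box, each on either strand. In TPRX2 2 matches of TAATCC overlap. The promoters lie at chr19:47858985-47859284 on the plus strand, chr19:39778604-39778903 on the plus strand, chr19:57167436-57167735 on the minus strand and chr16:75701412-75701711 on the minus strand, in the order printed.
TPRX2: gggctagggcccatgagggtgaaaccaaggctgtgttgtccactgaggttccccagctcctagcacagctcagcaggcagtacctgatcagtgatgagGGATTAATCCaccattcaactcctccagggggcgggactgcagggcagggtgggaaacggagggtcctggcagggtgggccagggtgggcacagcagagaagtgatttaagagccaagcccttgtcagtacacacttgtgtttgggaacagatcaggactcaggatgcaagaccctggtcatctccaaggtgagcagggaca
LEUTX: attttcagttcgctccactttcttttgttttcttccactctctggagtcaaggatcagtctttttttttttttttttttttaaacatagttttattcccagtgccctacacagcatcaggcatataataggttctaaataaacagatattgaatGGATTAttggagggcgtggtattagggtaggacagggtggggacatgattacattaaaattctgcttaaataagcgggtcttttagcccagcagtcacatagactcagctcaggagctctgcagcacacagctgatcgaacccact
DUXA: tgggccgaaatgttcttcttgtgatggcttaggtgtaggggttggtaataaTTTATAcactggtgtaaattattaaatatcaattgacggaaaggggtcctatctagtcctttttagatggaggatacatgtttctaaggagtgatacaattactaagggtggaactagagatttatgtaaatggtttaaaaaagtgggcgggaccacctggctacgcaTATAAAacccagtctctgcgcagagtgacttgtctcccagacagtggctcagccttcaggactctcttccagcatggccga
DUXB: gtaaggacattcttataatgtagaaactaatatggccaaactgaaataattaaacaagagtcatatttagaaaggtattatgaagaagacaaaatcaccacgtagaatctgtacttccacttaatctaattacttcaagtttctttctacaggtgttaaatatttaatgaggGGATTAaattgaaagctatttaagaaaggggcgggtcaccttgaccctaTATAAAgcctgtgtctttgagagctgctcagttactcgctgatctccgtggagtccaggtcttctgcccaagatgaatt
TAATCC occurred in the promoters of TPRX2, DUXB and the downstream LEUTX start, the nearest match 148, 78 and 96 bases before the start, and in 6.35% of 34796 RefSeq promoters of this length. TATAAA, a motif added after these sequences were seen, occurred nearest at 31 bases before the start of DUXA and at 29 before that of DUXB, and in 11.6% of all promoters. The DUX4 motif matched none of the 6 promoter entries and 0.144% of all. The GC content of the printed promoters was 57.7%, 40.0%, 43.3% and 36.3%, against a median of 58.7% over all promoters and 73.3% for DUX4. The upstream LEUTX start, not printed, had no TAATCC match and a GC content of 48.0%. The motif shares over all promoters were not matched for GC content, so they are no expected rate for these promoters.

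Library totals ran from 62277489 to 76691997 counts in CTRL and from 34634882 to 37795742 in DJL1. Depth thus differed with the group, and with no batch in the labels a difference in handling cannot be told apart from the transfection. POU5F1, which encodes the pluripotency factor OCT4, stood at 5324 ± 73.1 CPM (SD, n = 4) in CTRL and 5354 ± 269 CPM (SD, n = 3) in DJL1, CPM being the usual depth-scaled count. Over all 26062 genes tested by edgeR's quasi-likelihood test, 52.0% were called at an adjusted p under 0.05, 27.0% higher and 25.1% lower in DJL1. Every DJL1 value lay above every CTRL value for 27.4% of tested genes. Among the 7768 tested genes with a mean under 1 CPM, 19.6% were called higher and 5.25% lower.

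TPRX1, TPRX2, LEUTX, ARGFX, DUXA and DUXB were called higher in DJL1, with log2 fold changes of 1.86 to 3.24, while DUX4 was not called and DPRX was too low to test. Thus 6 of 7 tested members were called higher and 0 lower, against 27.0% and 25.1% of all tested genes. The median log2 fold change of the 7 was 1.98, against 0.01 over all tested genes. No member was lower at an unadjusted p under 0.05 in edgeR, by DESeq2 or by limma-voom. LEUTX passed the filter on low counts through its DJL1 libraries alone, and DUXA and DUX4 with at most 2 CTRL libraries above the cutoff of 0.161 CPM, so the count is a description of these genes and not a test of the family. In bulk RNA a larger number of expressing cells and more RNA per cell cannot be told apart.

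**Figure D1:**
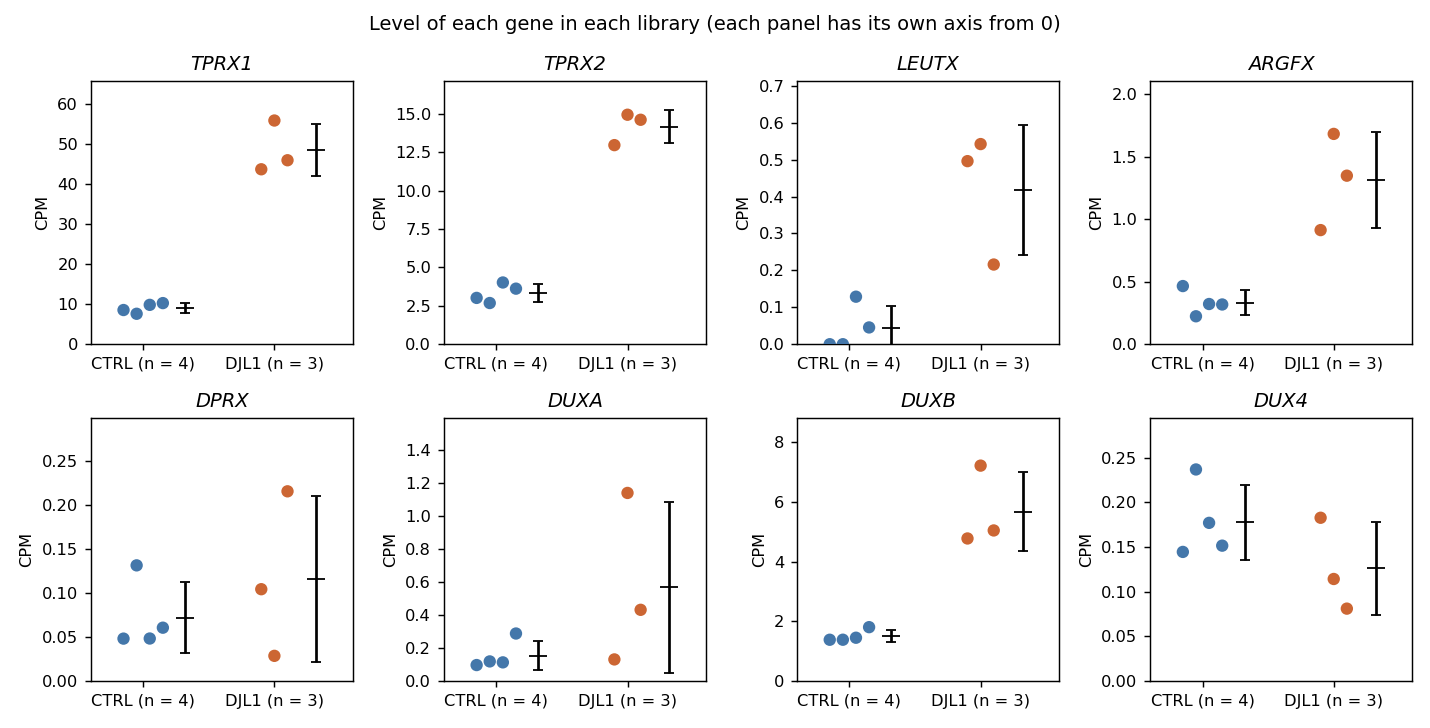
CPM of each of the 8 genes in each library (points) with the mean ± SD of the group beside them. The DJL1 points of TPRX1, TPRX2, LEUTX, ARGFX and DUXB all lie above the CTRL points, those of DPRX, DUXA and DUX4 overlap them, and the lower bar of LEUTX in CTRL is clipped at 0.

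TPRX1, a homeobox factor of human genome activation, was the most abundant member. It stood at 8.54, 7.60, 9.83 and 10.3 CPM in CTRL libraries 1 to 4 and at 43.7, 55.9 and 45.9 CPM in DJL1 libraries 1 to 3. The groups did not overlap, and the lowest DJL1 value was over 4 times the highest CTRL value. TPRX1 rose from 9.06 ± 1.22 CPM (SD, n = 4) to 48.5 ± 6.48 CPM (SD, n = 3), and its log2 fold change was 2.42 ± 0.10 (SE, edgeR adjusted p = 8.2e-11). The authors' deposited table gives a log2 fold change of 2.44 for TPRX1 with an adjusted p of 1.92e-10.

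TPRX2, its close relative on the other side of CRX, stood at 3.02, 2.68, 4.02 and 3.62 CPM in the CTRL libraries and at 12.97, 14.9 and 14.6 CPM in the DJL1 libraries. All DJL1 libraries were again above all CTRL libraries, within a narrow range. TPRX2 rose by 2.09 ± 0.13 on the log2 scale (SE, edgeR adjusted p = 3.6e-09), and the authors' deposited table gives 2.13. With the rows of both genes summed, so that the division of shared reads has no effect, the level was 12.4 ± 1.78 CPM (SD, n = 4) in CTRL and 62.7 ± 7.31 CPM (SD, n = 3) in DJL1, and the log2 fold change was 2.33 ± 0.10 (SE, edgeR adjusted p = 6.8e-10).

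TPRX1 made up 73.9%, 73.9%, 71.0% and 73.9% of the summed TPRX1 and TPRX2 counts in the CTRL libraries and 77.1%, 78.9% and 75.9% in the DJL1 libraries. The Wilson 95% intervals, which cover counting error only, ran from 67.8% to 76.96% over the CTRL libraries and from 74.0% to 80.4% over the DJL1 libraries. The mean share was 73.2 ± 1.47% (SD, n = 4) and 77.3 ± 1.52% (SD, n = 3), a difference of 4.11 percentage points. Although the groups did not overlap, an exact permutation test over the 35 splits gave a 2-sided p of 0.057. The 2-sided p doubles the smaller tail, and 0.057 is the smallest value that this rule can give with 35 splits.

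LEUTX, which encodes a transcriptional activator of the early embryo, was near the floor. It had 0, 0, 8 and 3 counts in the CTRL libraries and 19, 19 and 8 counts in the shallower DJL1 libraries. In CPM these are 0, 0, 0.129 and 0.045 against 0.496, 0.542 and 0.216, with no overlap between the groups. The log2 fold change was 3.24 ± 0.83 (SE, edgeR adjusted p = 0.0040), the highest of the 7 estimates and the one with the widest error. It ran from 2.80 to 4.62 over the alternative settings, the latter without CTRL replicate 3. LEUTX was called in each setting that could test it. It could not be tested with the filter of 1 CPM in at least 3 libraries or after thinning to the smallest library. In the reported fit it passed the filter through its DJL1 libraries alone, so being tested already rested on its level in DJL1. The authors' deposited table has no row for LEUTX.

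ARGFX, the arginine-fifty homeobox gene on chromosome 3, stood at 0.465, 0.224, 0.322 and 0.318 CPM in CTRL and at 0.913, 1.68 and 1.35 CPM in DJL1. The lowest DJL1 library was above the highest CTRL library, although the DJL1 values spread widely. ARGFX rose by 1.98 ± 0.33 on the log2 scale (SE, edgeR adjusted p = 0.00013), and the authors' deposited table gives 1.998.

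DPRX, the divergent paired-related homeobox gene, whose product has been described as a repressor of LEUTX targets, had 3, 10, 3 and 4 counts in CTRL and 4, 1 and 8 counts in DJL1. The groups overlapped across their whole range, and DPRX did not pass the filter on low counts. Without that filter its log2 fold change was 0.63 (edgeR adjusted p = 0.65). A difference in DPRX was not detectable at this depth.

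DUXB, a gene for a protein with a pair of homeodomains on chromosome 16, was the third most abundant member. It stood at 1.38, 1.38, 1.45 and 1.80 CPM in CTRL and at 4.78, 7.22 and 5.04 CPM in DJL1. The CTRL libraries were close together and every DJL1 library was above them. DUXB rose by 1.92 ± 0.17 on the log2 scale (SE, edgeR adjusted p = 2.5e-07), and the authors' deposited table gives 1.91.

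DUXA, its relative on chromosome 19, gave the least stable call. It stood at 0.096, 0.118, 0.113 and 0.288 CPM in CTRL and at 0.130, 1.14 and 0.432 CPM in DJL1. DJL1 library 1 lay within the CTRL range, and DJL1 library 2 was far above the rest. The log2 fold change was 1.86 ± 0.64 (SE, edgeR adjusted p = 0.023). Without DJL1 replicate 2 it was 0.84 (adjusted p = 0.33), and without CTRL replicate 1, 2 or 3 the adjusted p was 0.056, 0.058 and 0.054. The authors' deposited table gives DUXA a log2 fold change of 1.497 with an adjusted p of 0.053.

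DUX4, the activator placed upstream of the others in the embryo, had 9, 18, 11 and 10 counts in CTRL and 7, 4 and 3 counts in DJL1. In CPM it stood at 0.144, 0.237, 0.177 and 0.151 against 0.183, 0.114 and 0.081, with overlap. The log2 fold change was -0.49 ± 0.58 (SE, edgeR adjusted p = 0.51), and over the alternatives it ran from -0.87 to -0.26 without a call. Since 81.8% of its windows also occur in other genes, this row cannot stand for all DUX4 transcripts.

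**Figure D2:**
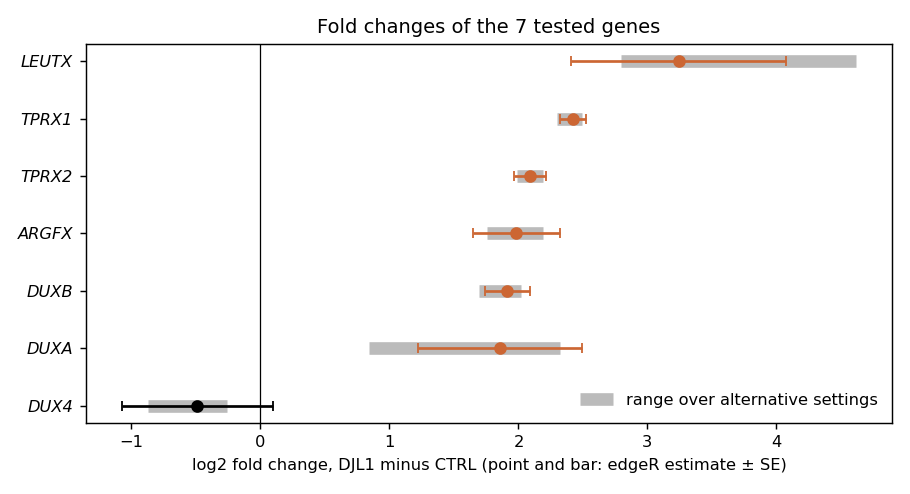
Log2 fold change of each of the 7 tested genes (x axis, DJL1 minus CTRL), with points and thin bars for the edgeR estimate ± SE and grey bars for the range over the alternative settings. LEUTX at 3.24 has the widest grey bar, DUXA reaches down to 0.84, and DUX4 lies at -0.49.

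The copies of DUX4 were read beside it. DUX4 lies in the D4Z4 repeats near the end of chromosome 4, with a like array on chromosome 10, and the table has 9 DUX4L rows of chromosome 4, 14 of chromosome 10 and 28 others. Summed over the rows of chromosome 10, the levels were 0.369, 0.355, 0.595 and 0.076 CPM in CTRL and 3.52, 1.51 and 1.08 CPM in DJL1. DJL1 library 1 was the highest and no DJL1 value overlapped a CTRL value. Over the rows of chromosome 4 the sums were 0.706, 0.605, 1.25 and 0.379 CPM against 2.92, 1.83 and 1.32 CPM, and over the other rows 2.08 ± 0.23 CPM (SD, n = 4) against 4.63 ± 0.33 CPM (SD, n = 3). Single rows weighed heavily in these sums. On chromosome 4, DUX4L9 had a mean of 0.116 CPM in CTRL and 0.839 CPM in DJL1, while each remaining row overlapped between the groups. DUX4L27 and DUX4L26 held most of the sum over the other rows. Their means were 1.06 and 0.63 CPM in CTRL and 2.16 and 1.59 CPM in DJL1. These sums were formed after the values were seen and have no test. How the authors counted reads that fit several copies is not given in the sources used here, so the DUX4 row and its copies cannot be read apart.

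Of 74 rows for pseudogenes and copies of the family, 54 had a count and 7 were tested, and 3 were called higher and 0 lower, against 27.0% and 25.1% of all tested genes. With 7 rows tested, 3 of them below the filter's cutoff in most CTRL libraries, the count is a description only. At an unadjusted p under 0.05 in edgeR, by DESeq2 and by limma-voom 0 were lower as well. DUX4L27 on chromosome 12 had a log2 fold change of 1.03 ± 0.24 (SE), DUX4L26 on chromosome 3 of 1.35 ± 0.32 and DUX4L9 on chromosome 4 of 2.87 ± 0.73. TPRXL, a relative of the TPRX genes, had 1.20 ± 0.52 and was not called (edgeR adjusted p = 0.065). The call count of these rows went to 6 without DJL1 replicate 2 and to 5 without DJL1 replicate 3.

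**Figure D3:**
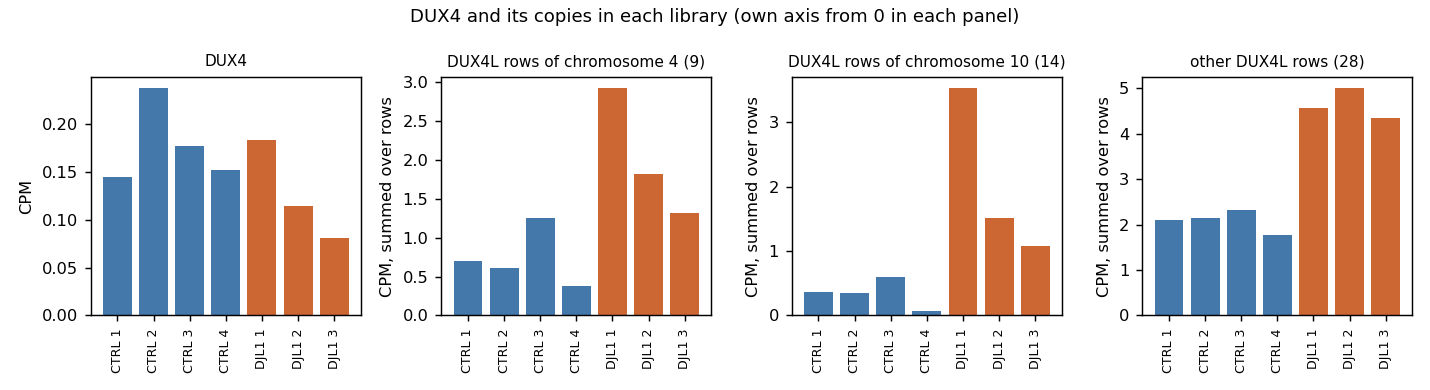
CPM of DUX4 and summed CPM of the DUX4L rows of chromosome 4, chromosome 10 and elsewhere (bars, 1 per library, blue for CTRL and orange for DJL1). The DUX4 bars of both groups overlap, while in the 3 panels of copies each DJL1 bar is above each CTRL bar. On chromosome 4 only the DUX4L9 row was by itself without overlap between the groups.

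The order of levels was compared per length, as CPM per kb of the longest GENCODE transcript. In CTRL, TPRX1 at 4.40 ± 0.59 and TPRX2 at 3.79 ± 0.68 CPM per kb (SD, n = 4) overlapped, DUXB followed at 1.39 ± 0.19 and ARGFX at 0.335 ± 0.101, both apart from the member above. The values of DUXA, DPRX, DUX4 and LEUTX overlapped from one to the next, and so did those of ARGFX and DUXA. In DJL1, TPRX1 at 23.6 ± 3.15 CPM per kb (SD, n = 3) no longer overlapped TPRX2 at 16.1 ± 1.20. DUXB at 5.26 ± 1.24 stood apart from TPRX2 and ARGFX. ARGFX at 1.33 ± 0.39 stood apart from LEUTX, next in the order. Its lowest value of 0.921 was under the highest DUXA value of 1.13, so ARGFX and DUXA overlapped. LEUTX moved from the last place to the fifth at 0.623 ± 0.263. LEUTX, DUXA, DPRX and DUX4 overlapped from one to the next.

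The DJL1 libraries differed among themselves. DJL1 library 2 held the highest DJL1 value of 6 of the 8 members, namely TPRX1, TPRX2, LEUTX, ARGFX, DUXA and DUXB, and of 25 of the 31 tested members of the list of other 8-cell-stage genes described next. Over all tested genes it held the highest value in 34.7%. It was also the smallest library. TPRX1, TPRX2, LEUTX, ARGFX and DUXB were still called without it, with log2 fold changes of 2.30, 2.04, 3.01, 1.76 and 1.69, and DUXA was not.

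Other genes of the 8-cell stage, many of them known targets of DUX4, were mostly called higher. Of 38 such genes 31 were tested, 27 were called higher and 0 lower, with a median log2 fold change of 2.08. Over all tested genes 27.0% were called higher and 25.1% lower, with a median of 0.01. Of the 31 genes, 8 were below the filter's cutoff in most CTRL libraries. The list also holds rows of multicopy families that may share reads, which was not checked here. MBD3L2, MBD3L2B, MBD3L3, MBD3L4 and MBD3L5 stood at 0.24 to 0.32 CPM in CTRL and 2.31 to 2.56 CPM in DJL1. TRIM43 and TRIM43B stood at 2.87 and 2.93 CPM in DJL1. The called rows are thus not that many independent genes. None was lower at an unadjusted p under 0.05 in edgeR, by DESeq2 or by limma-voom. SLC34A2, a phosphate transporter gene, had the smallest adjusted p (log2 fold change 2.08 ± 0.14, SE), followed by CCNA1, the meiotic cyclin A1 (2.07 ± 0.10), ALPG, a germ cell alkaline phosphatase (1.94 ± 0.10), RFPL2 (2.26 ± 0.22) and the histone variant gene H3Y1 (3.28 ± 0.32). ZSCAN4, a zinc finger gene of genome activation, stood at 1.33, 1.21, 2.11 and 1.89 CPM in CTRL and at 3.84, 4.79 and 4.67 CPM in DJL1. It rose by 1.44 ± 0.19 on the log2 scale (SE, edgeR adjusted p = 1.5e-05), less than TPRX1 in the same fit, a difference that was not tested. KLF17, a naive-state factor gene also expressed at genome activation, rose by 1.92 ± 0.23. HNRNPCL1, an hnRNP C-like gene of a multicopy family, was the only tested list member with a negative estimate (-0.77 ± 0.60, edgeR adjusted p = 0.30).

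Homeobox genes of the wider PRD class, most of them developmental patterning genes with no known part in genome activation, were also mostly higher. Of 36 such genes 31 were tested, 25 were called higher and 0 lower, and the median log2 fold change was 1.30, against 27.0% higher, 25.1% lower and a median of 0.01 over all tested genes. At an unadjusted p under 0.05 in edgeR, by DESeq2 and by limma-voom 0 were lower. UNCX and SHOX2, factors of the vertebral column and the limb, rose by 3.05 ± 0.27 and 2.60 ± 0.23 on the log2 scale (SE). RHOXF2 and RHOXF2B, near-identical germline genes of the X chromosome that share reads, rose by 1.83 and 1.99, and OTP, a hypothalamic factor, by 1.30. OTX2, a factor gene of primed cells and the forebrain, stood at -0.05 ± 0.08 and was not called.

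**Figure D4:**
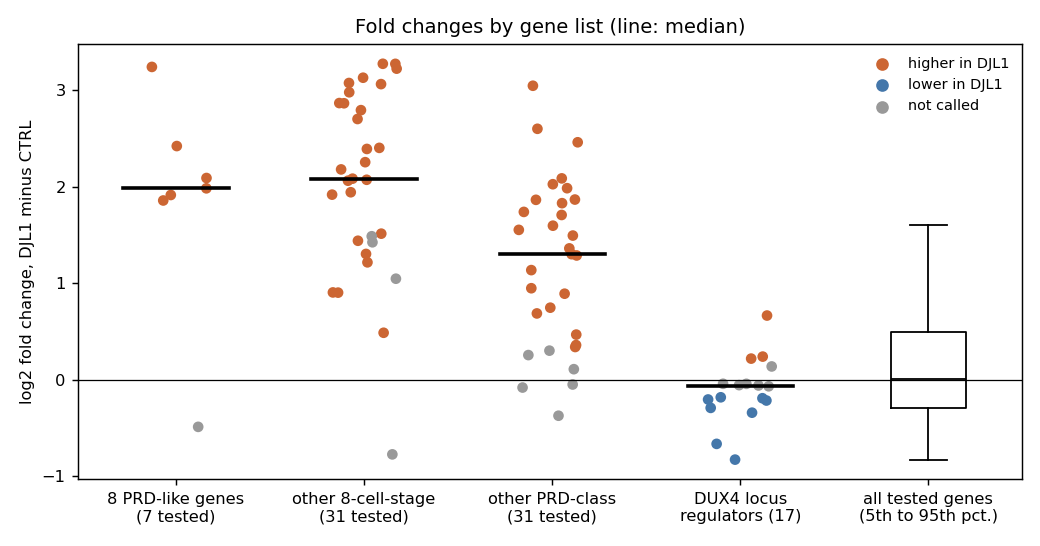
Log2 fold changes (y axis, DJL1 minus CTRL) of the tested members of 4 gene lists, 1 point per gene coloured by its call, with the median as a line, beside a box for all tested genes with whiskers at the 5th and 95th percentiles. The medians lie at 1.98 for the PRD-like genes, 2.08 for other 8-cell-stage genes, 1.30 for other PRD-class genes and -0.07 for regulators of the DUX4 locus.

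Among the genes next to the members on the chromosome, calls went in both directions. CRX, which lies between TPRX1 and TPRX2 at 2.9 kb from TPRX1 and 15.9 kb from TPRX2, stood at 0.592 ± 0.121 CPM (SD, n = 4) in CTRL and 0.452 ± 0.321 CPM (SD, n = 3) in DJL1 (log2 fold change -0.37 ± 0.44, edgeR adjusted p = 0.50). SELENOW, a selenoprotein gene on the other side of TPRX1, fell from 137 to 101 CPM, and SULT2A1 beyond TPRX2 had at most 0.039 CPM in any library. Over the 14 nearest protein-coding neighbours of the 8 members, 11 were tested, 3 were called higher and 4 lower, and their median log2 fold change was -0.21. These counts are near the shares over all tested genes, 27.0% higher and 25.1% lower, and are no result about the neighbours.

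The neighbour with the highest log2 fold change of the 11 tested was CPHXL2, a homeobox gene 16.9 kb from DUXB. It stood at 0.674, 0.868, 1.34 and 0.999 CPM in CTRL and at 2.77, 4.79 and 4.32 CPM in DJL1, with no overlap. CPHXL2 rose by 2.03 ± 0.24 on the log2 scale (SE, edgeR adjusted p = 3.4e-06), close in size to the 1.92 of DUXB. CPHXL, the related gene 12.7 kb from DUXB on its other side, stood at -0.33 ± 0.64 and was not called (edgeR adjusted p = 0.69).

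Of the remaining neighbours, FRG2, a gene beside the D4Z4 array, rose by 0.78 ± 0.22 on the log2 scale (SE) and DYRK1B, a kinase gene near LEUTX, by 0.37 ± 0.09. Near-identical copies of FRG2 elsewhere make its count uncertain. ZNF331 and NLRP12 beside DPRX had log2 fold changes of -0.27 and -0.21 and ZNF264 beside DUXA of -0.28, all called lower. POLQ and FBXO40 beside ARGFX were not called, at 0.04 ± 0.05 and 0.69 ± 0.63. CLC beside LEUTX and ZIM3 beside DUXA were too low to test.

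**Figure D5:**
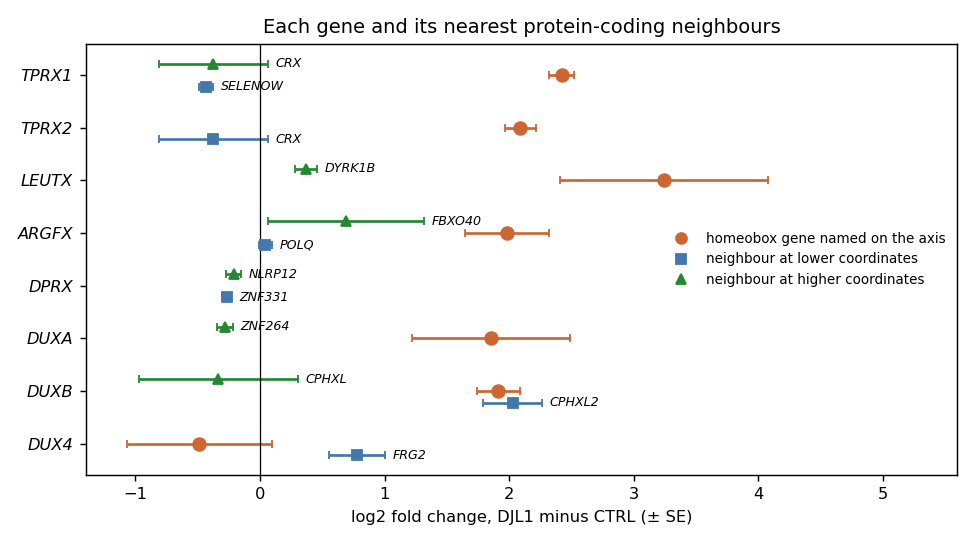
Log2 fold change ± SE (x axis, DJL1 minus CTRL) of each tested homeobox gene (circles) and of its nearest tested protein-coding neighbours at lower (squares) and higher (triangles) coordinates. CPHXL2 at 2.03 lies beside DUXB at 1.92, and all other neighbours lie under 1.

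Regulators of the DUX4 locus changed in both directions and by less than 2-fold. All 17 genes of this list were tested, 3 were called higher and 8 lower, and the median log2 fold change was -0.07. Over all tested genes 27.0% were called higher and 25.1% lower, and among those with a mean of at least 64 CPM 22.8% and 52.1%, so the counts of this list do not set it apart. DPPA4, an activator of the mouse Dux gene, fell from 945 ± 11.7 CPM (SD, n = 4) to 596 ± 44.2 CPM (SD, n = 3), and its partner DPPA2 stood at 18.5 ± 0.91 and 20.4 ± 0.73 CPM without a call (edgeR adjusted p = 0.086). DNMT3B, a DNA methyltransferase that keeps the D4Z4 repeats methylated, fell by 0.83 ± 0.06 on the log2 scale (SE). LRIF1, a repressor of D4Z4, rose by 0.67 ± 0.05, as did EZH2, the Polycomb methyltransferase, by 0.22 and MORC3 by 0.24. CHAF1B, a subunit of the histone chaperone CAF-1, had a log2 fold change of -0.34 and was called lower. TRIM28 and NCL, which with LINE1 RNA repress Dux in mouse embryonic stem cells, had -0.19 ± 0.05 and -0.22 ± 0.04 and were called lower.

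Markers of other cell types were read beside the members, against 27.0% of all tested genes called higher and 25.1% lower. Of the trophectoderm markers all 7 tested were higher, with summed levels of 14.4 to 18 CPM in CTRL and 45.7 to 58.5 CPM in DJL1, while VGLL1 had at most 0.026 CPM in any library. Of the fibroblast markers 5 of 7 tested were higher and 0 lower, from 522 to 539 CPM and from 791 to 914 CPM in sum, while DCN and LUM, which define that type, had at most 0.17 CPM. Most of the rise of the fibroblast sum came from COL1A1, with a mean of 241 CPM in CTRL and 484 CPM in DJL1. By DESeq2, by limma-voom and at an unadjusted p under 0.05 in edgeR 0 markers of either list were lower. Naive markers were higher in 5 and lower in 2 of 7 tested cases (357 to 360 CPM against 404 to 468 CPM in sum), and KHDC1L had at most 0.026 CPM. Of the 9 naive markers listed, 8 were found by symbol, so this tally and these sums are incomplete. The marker not found was listed as ALPPL2. ALPG was read only with the 8-cell-stage genes and enters neither the naive tally nor the naive sums. It was called higher, with a log2 fold change of 1.94 ± 0.10 (SE). Its mean level (578 CPM for CTRL, 2223 CPM for DJL1) exceeds the naive sums, so these sums do not describe the level of naive markers as a whole. Primed markers were higher in 3 and lower in 2 of 7 (991 to 998 CPM against 788 to 872 CPM), near the shares over all genes. THY1 is in both the fibroblast and the primed list and counts as higher in both tallies. The part of these cell types in the levels of the homeobox genes was not tested.

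Genes were ranked by how near their centred profile over the 7 libraries was to that of TPRX1. The members themselves were left out, so the ranking says nothing about how near they are. The nearest genes were sought among 14396 other protein-coding candidates with a mean of at least 1 CPM. They were IRX4, a homeobox gene of the heart ventricle, ZNF676, a KRAB zinc finger gene, BTG2, an antiproliferative gene, S1PR1, a sphingosine phosphate receptor gene, and HSPA1B, an inducible HSP70 gene with a near-identical neighbour. Their root mean square difference from TPRX1 ran from 0.091 to 0.104 on the log2 CPM scale, and their log2 fold changes from 2.27 to 2.46. Since the libraries fall into CTRL and DJL1, the ranking itself picks genes with a fold change near that of TPRX1. The likeness is a description only, and shared regulation with TPRX1 was not tested. HSPA1B was far more abundant, at 2566 ± 512 CPM (SD, n = 4) in CTRL and 13190 ± 2143 CPM (SD, n = 3) in DJL1.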

How the data were processed

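Per the file headers, the deposited count table has a row for every gene symbol and a column for every library, and its raw counts entered all tests as they stand. The authors' deposited table of DJL1 against CTRL gives the log2 fold change and the p-value, raw and adjusted, per the file headers. It lists TPRX1, TPRX2, ARGFX, DUXA and DUXB and has no row for LEUTX, DPRX or DUX4. Tools named in the submitters' processing notes are HISAT2 2.2.1, Trim Galore 0.4.0, Subread 1.5.0 and featureCounts, with the build GRCh38 (hg38). The kit marks strand, but for the strand setting and for multi-mapping reads the choice is not given in the sources used here. A further table of log values was not used.

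Sample titles gave the groups. No label says that replicates came from separate cultures, so the p-values rest on a spread between samples that may be technical. The labels speak of a sort at harvest and the design text of direct RNA extraction, so whether cells were sorted is unclear. The 26062 genes that passed edgeR's filterByExpr (minimum count 10, total 15) held 99.9% of the counts. They were scaled by TMM and tested by edgeR's quasi-likelihood test, 2-sided, with Benjamini-Hochberg adjustment over all tested genes at 0.05. CPM uses the same scaling, and log2 CPM a prior count of 2. Each SE was derived from the log2 fold change and its F statistic. The scripts were tested on simulated data. Shared windows were compared between GENCODE release 29 transcripts, where TPRX2 is named TPRX2P. Positions and promoters are from RefSeq GRCh38.p14, and neighbours are genes that do not overlap the member.

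Members and lists were chosen with earlier results of these data known. Named genes are all members, the 5 genes nearest to TPRX1, all neighbours, in each list the called genes of lowest adjusted p (5 at most), genes against the direction of their list, and ZSCAN4, KLF17, CRX, DPPA2, DPPA4, TRIM28 and NCL, of which some are not reported here. Markers outside that rule, POU5F1, DUX4L copies and TPRXL were added after values were seen. The alternatives were DESeq2, limma-voom, voom with a variance for each group, no filter, library size alone, upper quartile and relative log expression factors, 1 CPM in at least 3 libraries, thinning to the smallest library, a stricter call at 0.01, leaving out each library and the replicate number as a block. Fits used edgeR 4.0.16, DESeq2 1.42.0 and limma 3.58.1 in R 4.3.3, and the permutation test SciPy 1.17.1 in Python 3.11.15.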

Additional observations from a re-analysis of the deposited data

Results flagged for a closer look

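In 16 sets of 4 CTRL values (the 8 members, the TPRX1 share and 7 sums of copies), 4 held a value set apart from the other libraries by Dixon's 95% criterion. Chance alone meets it in about 1 of 20 groups of independent, normally distributed values. These sets include low counts and overlapping sums, so that rate need not hold here. DUXA stood at 0.288 CPM in CTRL library 4, where the gap to the next library was 0.885 of the range, and DUXB at 1.80 CPM in the same library (0.84 of the range). Both were highest in that library. DPRX stood at 0.132 CPM in CTRL library 2, from 10 counts, against 3 or 4 counts in the other CTRL libraries. The share of TPRX1 in the summed TPRX1 and TPRX2 counts was 71.0% in CTRL library 3 and 73.9% in each of the others.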

How the results depend on the processing

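TPRX1, TPRX2 and DUXB were called higher in all 18 alternatives, ARGFX in the 17 and LEUTX in the 16 that could test them, and DUX4 was not called in the 11 that could test it. Their log2 fold changes ran from 2.30 to 2.49, 1.99 to 2.19, 1.69 to 2.02, 1.76 to 2.19, 2.80 to 4.62 and -0.87 to -0.26. For LEUTX the tally is no separate support, since it passed the filter of the reported fit through its DJL1 libraries alone. DUXA kept its call in 7 of 14 alternatives and lost it with limma-voom (adjusted p = 0.063), with a variance for each group (0.053), at an adjusted p of 0.01, and without CTRL replicate 1, 2 or 3 or DJL1 replicate 2. No direction was reversed. The number of members called fell from 6 to 3 with a filter of 1 CPM in at least 3 libraries, which leaves 3 of them to test. After thinning to the smallest library all 4 members that could be tested were called. Called family copies, 3 in the reported fit, were 5 with no filter, where 54 rows are tested, and 3 to 6 with 1 library left out. The same 5 genes were nearest to TPRX1 with a prior count of 0.5 and with library size alone. Same-numbered libraries of the groups did not deviate together (r of -0.009, -0.039 and -0.025 across genes). Whether same-numbered samples were prepared together cannot be read from these values, and the labels do not say. With the replicate block on replicates 1 to 3, 11568 genes were called over all against 13559, 5 members were called of 5 tested, 27 other 8-cell-stage genes, 23 other PRD-class genes, 11 regulators, 3 copies and 7 neighbours were called, and the summed TPRX row had a log2 fold change of 2.40. The TPRX1 share differed by 4.36 points in the paired exact permutation test (p = 0.25, the smallest that 3 pairs allow). Depth limits DPRX, LEUTX, DUXA and DUX4, each with 40 or fewer counts in any library.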
